A study of Mus musculus with 10 samples.

Results

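Lineage-negative bone marrow cells of mice carrying both the Npm1 cA mutation and a Flt3 internal tandem duplication (double mutant HSPC) were compared with the same fraction of wild-type mice (WT HSPC). The comparison covered every gene with at least 1 RPKM (reads scaled to gene length and library size) in at least 2 of the 4 libraries, which was 9626 of the 16771 genes listed. The double mutant genotype was Npm1flox-cA/+;Flt3ITD/+;Mx1-Cre+, with 2 libraries. The reference was wild type, with 2 libraries and no Cre in its label. Single mutants served for side-by-side values: Npm1c HSPC (Npm1flox-cA/+;Mx1-Cre+, 2 libraries) and Flt3-ITD HSPC (Flt3ITD/+, 2 libraries). All mice were C57BL/6, and the labels give neither an age nor an agent that induced the Cre. The cells were what a magnetic lineage depletion of red-cell-lysed marrow leaves, so each library is a mixture of stem cells, progenitors and any unlabelled mature cell, and no stem cell gate was applied. Mx1-Cre is driven by an interferon-responsive promoter that is active in many cells beyond the blood system, and the files do not separate mutant from normal transcripts of Npm1 or Flt3.

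NPM1 is a nucleolar chaperone of ribosome assembly, and the leukaemic cA mutation creates a nuclear export signal that relocates the protein out of the nucleus. The FLT3 receptor is a tyrosine kinase of early lymphoid, myeloid and dendritic progenitors, and the tandem duplication makes it signal without ligand, through STAT5 and the RAS-MAPK cascade among others. Both mutations occur together in many acute myeloid leukaemias, in which HOXA genes are typically expressed at high level. FLT3 ligand is also the main growth factor of dendritic cells. The question behind the comparison is which genes the combined genotype changes in the progenitor fraction.

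The 4 libraries held between 44450779 and 57824373 reads, as recovered from the RPKM values, and 67.1% to 74.5% of these fell on listed genes. The 2 replicate libraries of the double mutant differed by a median of 0.035 on the log2 scale and those of WT by 0.048, against 0.064 for Npm1c and 0.110 for Flt3-ITD, and the series describes the replicates as biological. The Y-linked genes Ddx3y, Eif2s3y and Uty were near 0 in both WT and both double mutant libraries but stood at 4.61, 7.64 and 1.80 scaled RPKM in Npm1c library 2 and at 4.76, 6.98 and 1.56 in Flt3-ITD library 1, so each single mutant group mixes libraries with and without these transcripts. The p-values set each change against a spread estimated over all 8 HSPC libraries, single mutants included, and small changes pass easily. Levels below are RPKM divided by a median-of-ratios factor per library (scaled RPKM), and the 2 values of a pair are libraries 1 and 2 of that group. A log2 change is the difference of group means of log2(scaled RPKM + 0.5), which understates the change of low genes. It is given with its standard error (SE), and every adjusted p comes from limma over all 9626 genes. In bulk RNA, fewer cells of a type and less RNA per cell cannot be told apart.

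Of the genes tested 7436 (77.2%) changed: 3734 (38.8%) were higher and 3702 (38.5%) lower in the double mutant at an adjusted p under 0.05. The 2 directions differed in size: 1522 genes (15.8%) were higher by at least 2-fold and 417 (4.33%) lower by as much. At 8-fold or more there were 300 higher genes and 22 lower, and at 64-fold or more 27 higher and 0 lower. Without a minimum level the 2-fold counts were 1728 higher and 459 lower, and with at least 1 RPKM in all 4 libraries 851 and 228. Under the minimum used, 743 genes reached 1 RPKM in both double mutant libraries and in neither WT library. Of these, 742 were called higher. Another 643 reached it in both WT libraries and in neither double mutant library, of which 524 were called lower. The groups did not overlap for 4406 higher genes (45.8%) and 4490 lower ones (46.6%). The split depends on the scale: the median gene changed by -0.01 (log2) after scaling, and by -0.34 on the deposited RPKM, where 2312 genes were higher and 5683 lower, or 1154 and 1016 at 2-fold. Positive changes of less than about 0.34 can therefore take the other sign on that scale, and are not called rises below.

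**Figure D1:**
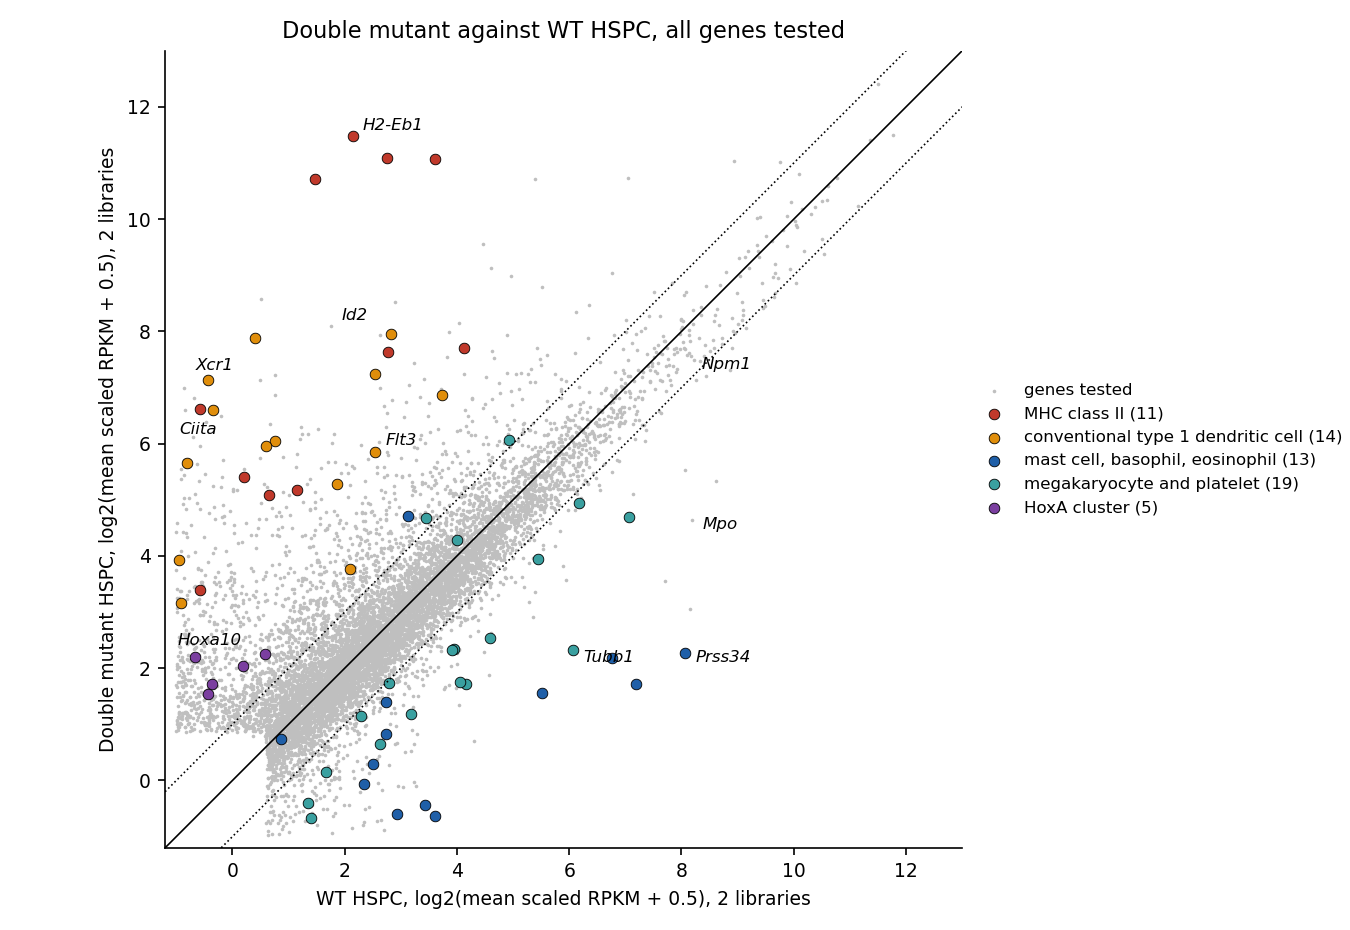
Each point is 1 of the 9626 genes tested, with log2(mean scaled RPKM + 0.5) of the 2 WT HSPC libraries on the x axis and of the 2 double mutant HSPC libraries on the y axis; the solid line marks equal levels, the dotted lines a 2-fold difference and the colours 5 gene lists. All 11 MHC class II and 14 conventional type 1 dendritic cell genes lie above the upper dotted line, and 11 of 13 mast cell, basophil and eosinophil genes and 16 of 19 megakaryocyte genes lie below the lower one.

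The targeted genes were checked first. Npm1 (chr11:33152287-33163206, GRCm38, minus strand) stood at 288 and 285 scaled RPKM in WT and at 190 and 185 in the double mutant. It was lower by a log2 change of -0.61 (SE 0.058, adjusted p = 5.96e-05). The Npm1c libraries, which carry the same Npm1 allele, stood at 329 and 356 and the Flt3-ITD libraries at 308 and 335, so that the double mutant was the lowest of the 4 groups. Flt3 (chr5:147330741-147400489) stood at 5.34 and 5.24 in WT and at 57.5 and 57.6 in the double mutant, 10.9-fold higher (log2 change 3.33, SE 0.090, adjusted p = 1.1e-07). Neither single mutant approached this level of the receptor gene: Npm1c stood at 4.27 and 4.04 and Flt3-ITD at 5.51 and 4.40. Neither value shows recombination or the duplication, since both alleles were counted together.

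The largest rises were in MHC class II genes, whose products load and display peptides to CD4 T cells. All 11 genes of the list were tested and all 11 were higher, by a median log2 change of 5.20 against -0.01 over all genes tested. The minimum was reached through the double mutant alone by 3 of them. Their summed level was 51.6 and 51.0 scaled RPKM in WT and 9474 and 9429 in the double mutant. H2-Eb1, a class II beta chain, stood at 4.28 and 3.53 in WT and at 2833 and 2850 in the double mutant, 727-fold higher (log2 change 9.34, SE 0.20, adjusted p = 3.94e-08), and had the third highest level of all genes in those libraries. H2-Aa, an alpha chain, went from 2.54 and 1.99 to 1687 and 1667, and H2-Ab1, a beta chain, from 6.42 and 6.02 to 2184 and 2148. Cd74, the invariant chain that guards the binding groove, stood at 11.8 and 11.6 in WT and at 2141 and 2142 in the double mutant. Ciita, the transactivator that class II promoters require, rose from 0.193 and 0.149 to 98.4 and 98.2 (log2 change 7.20, SE 0.070, adjusted p = 2.55e-09). The peptide exchange genes moved less, H2-DMa by 3.58, H2-DMb1 by 4.85, H2-DMb2 by 5.20, H2-Oa by 4.03 and H2-Ob by 4.45, as did the second beta chain locus H2-Eb2, by 3.97. In both single mutants the summed level of the list lay between 37.0 and 61.8, near that of WT, and all 11 genes were higher in the double mutant than in each of them, where 40.4% (against Npm1c) and 39.5% (against Flt3-ITD) of all genes were higher and 40.1% and 38.4% lower. Comparisons with WT and with the single mutants share the 2 double mutant libraries.

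Class II promoters are known for an X box, bound by RFX factors that recruit CIITA, and a CCAAT element, the Y box, downstream of it. The stretches below show both in 3 genes of the list, as found in RefSeq start-site windows (250 bases before to 50 after the start, GRCm38.p6), with capitals marking the X box letters (AG, any 2 bases, AC, any base, GATG) and CCAAT or its complement ATTGG.
H2-Eb1, chr17:34305767-34305844, plus strand: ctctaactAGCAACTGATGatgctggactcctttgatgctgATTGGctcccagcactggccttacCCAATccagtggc
H2-Eb2, chr17:34325534-34325587, plus strand: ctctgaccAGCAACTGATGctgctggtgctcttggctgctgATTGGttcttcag
H2-DMb1, chr17:34153088-34153142, plus strand: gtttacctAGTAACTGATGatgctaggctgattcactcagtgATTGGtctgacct
Of the 8 class II genes with a window, 4 held the X box letters (the fourth was H2-Oa) and 8 held CCAAT, read on both strands. Over the 7377 tested genes with a window the shares were 0.949% and 42.9%. The X box pattern was chosen after the values had been seen. The 3 genes printed differed in level, at 2833, 10.2 and 198 scaled RPKM in double mutant library 1.

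Dendritic cell genes were the second group. Conventional type 1 dendritic cells cross-present antigen to CD8 T cells and depend on IRF8, BATF3 and ID2. All 14 genes of their list were tested and higher, with a median log2 change of 5.01; 6 of them reached the minimum through the double mutant alone. Xcr1, the chemokine receptor that defines these cells, stood at 0.271 and 0.207 scaled RPKM in WT and at 142 and 138 in the double mutant (log2 change 7.57, SE 0.060, adjusted p = 2.05e-09). Clec9a, a receptor for dead cells, rose from 1.24 and 1.13 to 66.6 and 65.3, Itgae (CD103) from 0.334 and 0.246 to 96.7 and 96.6, and Tlr3, the sensor of double-stranded RNA, from 0.0784 and 0.0588 to 51.1 and 48.4. The transcription factors of the lineage were higher too: Irf8 went from 12.6 and 12.8 to 116 and 116, Id2 from 2.93 and 2.82 to 278 and 267, and Batf3 from 0.0392 and 0.0189 to 8.53 and 8.29. Zbtb46, a factor of all conventional dendritic cells, had the smallest change of the list, 1.68, from a WT level of 3.77 and 3.74. The list summed to 40.6 and 40.5 in WT and to 1308 and 1284 in the double mutant, and no member was at 0 in either group.

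Genes of type 2 dendritic cells changed less. All 9 tested of the 12 listed were higher, with a median of 1.68 and 3 reaching the minimum through the double mutant alone. Itgax, the integrin CD11c, carried most of the rise, from 1.10 and 1.28 to 116 and 115, and Cd209a, a lectin of this subset, went from 1.24 and 1.32 to 13.7 and 14.4. Irf4, their transcription factor, was 4.04-fold higher. Of the 6 plasmacytoid dendritic cell genes tested, of which 3 reached the minimum through the double mutant alone, 4 were higher, among them Tlr9 (log2 change 4.13), Spib (2.43) and Bst2 (1.81), and Dntt, the nucleotide transferase of lymphoid progenitors, was lower, from 5.33 and 5.63 to 0.757 and 0.850. Siglech, a defining plasmacytoid receptor, stayed under the minimum, at 0.206 and 0.207 in WT and 0.876 and 0.948 in the double mutant. Ccr7, which guides dendritic cells to lymph nodes, and Cd83 were among the 20 largest rises: Ccr7 went from 0.429 and 0.316 to 90.3 and 88.4, and Cd83 from 0.303 and 0.325 to 103 and 97.3. The costimulator Cd86 went from 0.180 and 0.137 to 40.3 and 39.4. Fscn1, an actin bundler, and the chemokine Ccl22 rose by 5.30 and 5.67. Every one of the 14 type 1 and 9 type 2 genes was also higher than in Npm1c and than in Flt3-ITD HSPC.

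**Figure D2:**
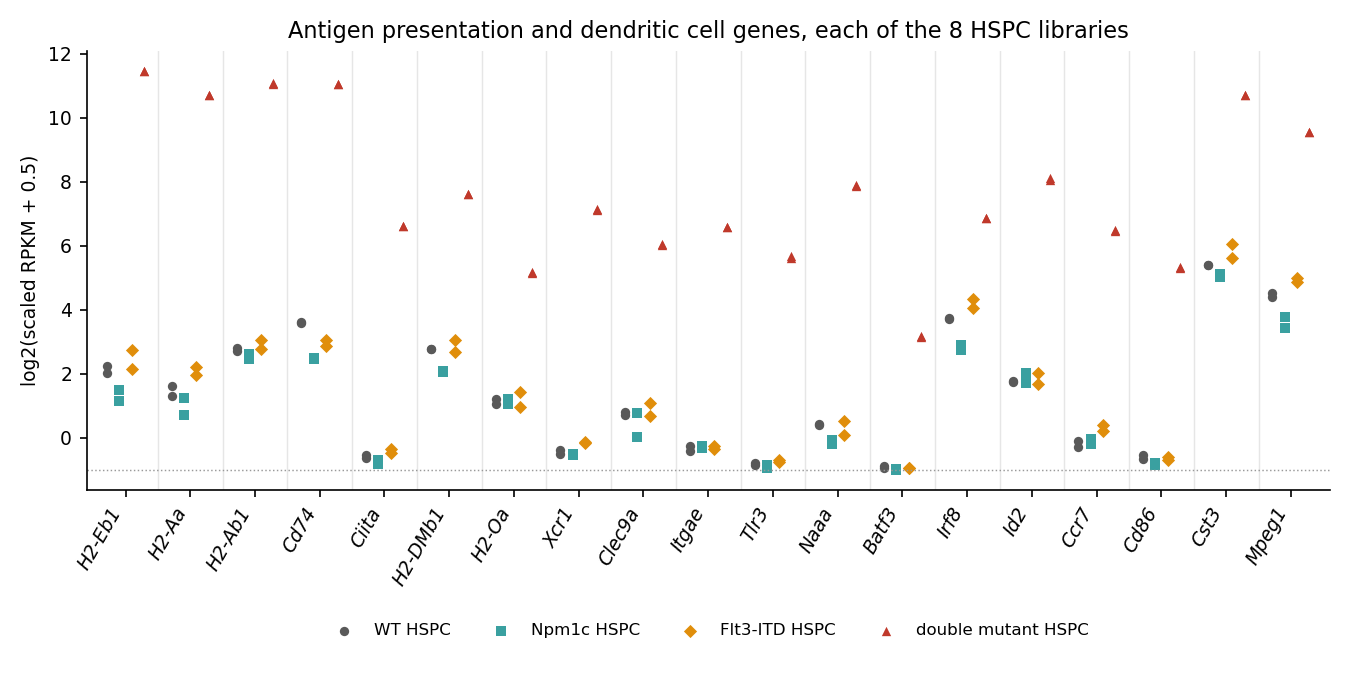
Each symbol is 1 library, with log2(scaled RPKM + 0.5) on the y axis for 19 antigen presentation and dendritic cell genes on the x axis; the dotted line marks 0 scaled RPKM. The 2 double mutant libraries (triangles) lie above the 6 others for every gene, and for H2-Eb1 at 2833 and 2850 scaled RPKM against 4.28 and 3.53 in WT.

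The 20 largest rises outside predicted genes and antigen receptor segments included 8 of the class II and type 1 dendritic cell lists, Ccr7 and Cd83, and 10 with other roles. Plbd1, a lysosomal phospholipase-like gene, went from 0.996 and 0.862 to 383 and 375 (log2 change 8.06, SE 0.21, adjusted p = 8.6e-08). Ckb, brain creatine kinase, rose by 6.64, Sept3, a septin, by 6.57, Tlr11, a receptor for profilin, by 6.47, Ifi205, an interferon-induced gene of the HIN-200 family, by 6.86, and Phf11a and Phf11b, neighbouring paralogs whose reads may be shared, by 6.83 and 6.47. The 3 copies of the antiapoptotic gene Bcl2a1 were among them: Bcl2a1a rose by 7.46, Bcl2a1b by 6.53 and Bcl2a1d by 7.49. These copies are near-identical, so the split of reads between them is uncertain, and WT held only 5, 16 and 12 of their reads over both libraries. In the same order, an AP-1 match (TGANTCA) and a PU.1 match (GAGGAAGT) stood upstream of each copy, but nearer together in Bcl2a1d. The matches are in capitals with GRCm38.p6 positions, and were printed because all 3 copies rose.
Bcl2a1a, chr9:88956792-88956831, plus strand: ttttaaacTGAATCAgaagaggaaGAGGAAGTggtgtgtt
Bcl2a1d, chr9:88731939-88731972, minus strand: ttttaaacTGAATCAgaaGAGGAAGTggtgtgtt
The stretch of Bcl2a1b had the letters of Bcl2a1a. AP-1 letters were in 5.73% and PU.1 letters in 4.07% of all windows by gene, and in 8.44% and 8.79% of the windows of the 1161 genes at least 2-fold higher, which is a description without a test.

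Antigen processing and sensing genes accompanied them. Of 13 MHC class I presentation genes 13 were higher, 12 by at least 2-fold, with a median of 1.72. B2m, the common light chain, rose from 837 and 899 to 2056 and 2071, H2-D1 from 71.5 and 65.9 to 324 and 324, and Psmb9, a subunit of the immunoproteasome, from 4.42 and 4.88 to 33.0 and 32.4. Erap1, the peptide trimmer, was the exception in size, at 37.6 and 38.1 in WT and 44.4 and 43.0 in the double mutant, and was not higher on the deposited scale. Lysosome and cathepsin genes were higher in 17 of 23 and lower in 3. Cst3, cystatin C, went from 41.8 and 41.6 to 1677 and 1682, Psap, prosaposin, from 30.5 and 31.2 to 508 and 508, and Ctss, the protease that trims the invariant chain, from 13.6 and 13.7 to 188 and 186, whereas Ctsg, a granule protease on the same list, fell by 2.53. Among chemokine and Toll-like receptors 17 of 20 were higher and 1, Cxcr2, was lower, although 12 of these 20 reached the minimum through the double mutant alone. Cxcr3, a receptor for interferon-induced chemokines, rose by 5.43 and Tlr13, a sensor of bacterial RNA, by 5.59. Lectin and immune inhibitory receptors were higher in 12 of 15 and lower in 2, with 7 reaching the minimum through the double mutant alone and 3 through WT alone. Havcr2 (TIM-3), an inhibitory receptor outside that list, went from 0.148 and 0.149 to 49.9 and 48.7.

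Of 19 monocyte and macrophage genes tested, 15 were higher and 2 lower, with a median of 2.05, and 8 of the 19 reached the minimum through the double mutant alone. Mpeg1, the perforin of phagocytes, rose from 22.4 and 20.7 to 754 and 753 (log2 change 5.10, SE 0.11, adjusted p = 3.41e-08), Cd68, a lysosomal glycoprotein, by 3.54, Ccr2, which draws monocytes out of marrow, by 2.52, and the lysozyme gene Lyz2 by 1.55. The receptor that defines the lineage did not pass: Csf1r stood at 8.96 and 8.98 in WT and at 10.4 and 10.5 in the double mutant (adjusted p = 0.18), with the opposite sign on the deposited scale. Ly6c2, which marks classical monocytes, stood at 37.6 and 39.8 in WT and at 30.4 and 30.1 (adjusted p = 0.314). Both genes, and Cebpa and Bcl2 further down, passed when the 4 libraries were fitted alone, and also when either Flt3-ITD library was left out of the fit. F13a1, a transglutaminase of monocytes and platelets, fell from 40.4 and 40.7 to 6.91 and 7.24, and the Fc receptor gene Fcgr3 by a log2 change of -1.45. Genes of this list are also expressed by dendritic cells, and the part of either cell type in the change was not tested.

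Granule protein genes of neutrophil precursors were lower. Of 15 primary granule genes 8 were lower and 2 higher, and 2 reached the minimum through WT alone. Mpo, myeloperoxidase, stood at 284 and 298 in WT and at 22.9 and 25.7 in the double mutant, 12-fold lower (log2 change -3.56, SE 0.25, adjusted p = 1.38e-05). Elane, neutrophil elastase, went from 382 and 401 to 40.8 and 39.2, and Prtn3 and Ms4a3, 2 further genes of the promyelocyte stage, had log2 changes of -2.38 and -2.70. Ctsc, the protease that activates granule enzymes in many leukocytes, was higher by 1.49. Cebpe, the factor of terminal granulocyte differentiation, fell from 3.18 and 3.30 to 0.591 and 0.457. Of 17 late neutrophil genes 4 were higher, 2 lower and 11 did not pass, with a median of 0.84 and a summed level of 110 and 89.4 in WT and 240 and 222 in the double mutant. S100a8 stood at 18.9 and 14.5 in WT and at 29.9 and 25.4 (adjusted p = 0.273), and Ngp at 13.5 and 11.2 in WT and at 31.2 and 29.0 (adjusted p = 0.0793). These genes varied between replicates of the single mutants, with Ngp at 29.5 and 128 in Npm1c, and the error estimate is shared over the 8 HSPC libraries; 14 of the 17 were higher when the 4 libraries were fitted alone. The receptor genes were lower, Csf3r at 3.04 and 3.06 in WT against 0.975 and 0.998, and Cxcr2 at 1.22 and 1.1 against 0.422 and 0.25. Ly6g, a surface marker of neutrophils, was at 0.255 and 0.218 in WT and 0.460 and 0.233 in the double mutant, under the minimum.

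Mast cell, basophil and eosinophil genes showed the deepest falls. Of 13 tested, 11 were lower, all by at least 2-fold, and 1 was higher, with a median of -3.54. The minimum was reached through WT alone by 6 of the 13. Prss34, a basophil protease, went from 260 and 274 to 3.24 and 5.39, 61.9-fold lower (log2 change -5.83, SE 0.31, adjusted p = 3.18e-06). Mcpt8, the protease that marks basophils, fell from 141 and 148 to 2.17 and 3.38, and Cpa3, mast cell carboxypeptidase, from 43.6 and 46.9 to 2.25 and 2.63. The high-affinity IgE receptor genes fell with them, Fcer1a from 11.6 and 11.9 to 0.0484 and 0.237 and Ms4a2 from 7.34 and 7 to 0.135 and 0.186. Eosinophil granule genes did the same: Prg2 had a log2 change of -4.58, Epx of -3.87, Ear1 of -3.57 and Ear6 of -3.12. Ear2 was higher, at 8.27 and 8.23 in WT and 25.8 and 25.5, in a family of near-identical ribonucleases whose reads the counting may divide unevenly. The list summed to 618 and 638 scaled RPKM in WT and to 43.8 and 48.6 in the double mutant, and of its members Tpsb2 and Mcpt4 were at 0 in both double mutant libraries. Single mutants kept these transcripts, with Prss34 at 203 and 257 in Npm1c and at 245 and 134 in Flt3-ITD.

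Megakaryocyte and platelet genes were lower in 16 of 19, all 16 by at least 2-fold, and higher in 3, of which F2r changed by only 0.28 and was not higher on the deposited scale. The minimum was reached through WT alone by 4 of the 19. Tubb1, the platelet tubulin, fell from 64.4 and 68.0 to 4.32 and 4.74 (log2 change -3.73, SE 0.22, adjusted p = 4.87e-06), Itga2b, integrin alpha IIb, from 17.3 and 17.3 to 2.72 and 2.87, and Ppbp and Pf4, chemokines of platelet granules, by log2 changes of -2.38 and -1.23. The 2 with clear rises, Plek at 30.5 and 29.7 in WT against 66.7 and 66.0 and F2rl2 at 10.2 and 10.5 against 24.6 and 25.5, encode pleckstrin, which other leukocytes also express, and a thrombin receptor. The list summed to 480 and 498 in WT, 213 and 214 in the double mutant, 451 and 279 in Npm1c and 327 and 332 in Flt3-ITD.

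Of 26 erythroid genes tested, 20 were lower and 6 higher. Klf1, the master factor of red cell genes, fell from 139 and 149 to 69.2 and 65.4 (log2 change -1.09, SE 0.095, adjusted p = 3.7e-05), Epor, the erythropoietin receptor, from 29.4 and 27.9 to 12.1 and 11.6, and Ermap from 45.1 and 44 to 14.4 and 14.6. The 6 higher genes were 4 globins, Alas2 and Slc4a1: Hbb-bs went from 105 and 112 to 531 and 526, Hbb-bt from 42.1 and 46.1 to 179 and 182, Hba-a1 from 175 and 190 to 424 and 413 and Hba-a2 from 8.03 and 9.23 to 39.4 and 35.4, and Alas2, the haem synthesis enzyme of red cells, and Slc4a1, band 3, were higher by 1.46 and 0.75. The calls of Alas2 and Slc4a1 were lost without any 1 of the 4 libraries, and that of Hba-a1 without WT library 1. The globin copies share sequence, so that their split is uncertain. Globin levels also varied in single mutants, Hbb-bs standing at 102 and 258 in Npm1c and at 75.4 and 186 in Flt3-ITD, and the number of higher erythroid genes ranged from 3 to 6 over the settings tried. Summed over the list, WT stood at 2666 and 2771 and the double mutant at 2506 and 2490.

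Stem and progenitor genes were mostly lower. Both WT and double mutant libraries held Kit and Cd34, which the label HSPC implies, whereas the stem cell genes Hlf, Tek, Mecom and Procr stayed under the minimum in both. Under it, Hlf went from 0.771 and 0.737 in WT to 0.142 and 0.154 and Tek from 0.323 and 0.357 to 0.0107 and 0.0177. Mecom went from 0.0533 and 0.0642 to 0.0248 and 0.0228, while Procr was higher, from 0.122 and 0.0934 to 0.705 and 0.787. Of 10 stem cell genes tested among 20 listed, 7 were lower and 2 higher, with a median of -1.74, and 2 reached the minimum through WT alone. Myb, a factor that progenitors need to proliferate, fell from 59.6 and 58.6 to 13.5 and 13.6 (log2 change -2.08, SE 0.063, adjusted p = 1.88e-07), Gata2 from 6.07 and 6.31 to 1.23 and 1.33, and Cd34 from 15.3 and 15.8 to 4.24 and 4.39. Angpt1 and Esam, both of stem cell profiles, had log2 changes of -2.34 and -1.99. Kit moved less, at 14.8 and 14.6 in WT and at 11.3 and 11.3. Ly6a (Sca-1) was higher, from 1.88 and 1.96 to 6.70 and 6.63; it is interferon-responsive and is expressed by cells other than stem cells. Erythroid and megakaryocyte transcription factors were lower in 10 of 12, with Gata1 going from 60.8 and 64.3 to 27.8 and 27.5 and Gfi1b from 39.9 and 43.3 to 9.92 and 9.68, and Cbfa2t3, a corepressor, was the 1 higher, by 2.12. Myeloid factors were higher in 9 of 14 and lower in 3, with 3 reaching the minimum through the double mutant alone: Spi1 (PU.1) rose from 8.14 and 9.15 to 39.4 and 38.9, whereas Cebpa stood at 16.2 and 17.7 in WT and 14.7 and 13.7 (adjusted p = 0.21).

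**Figure D3:**
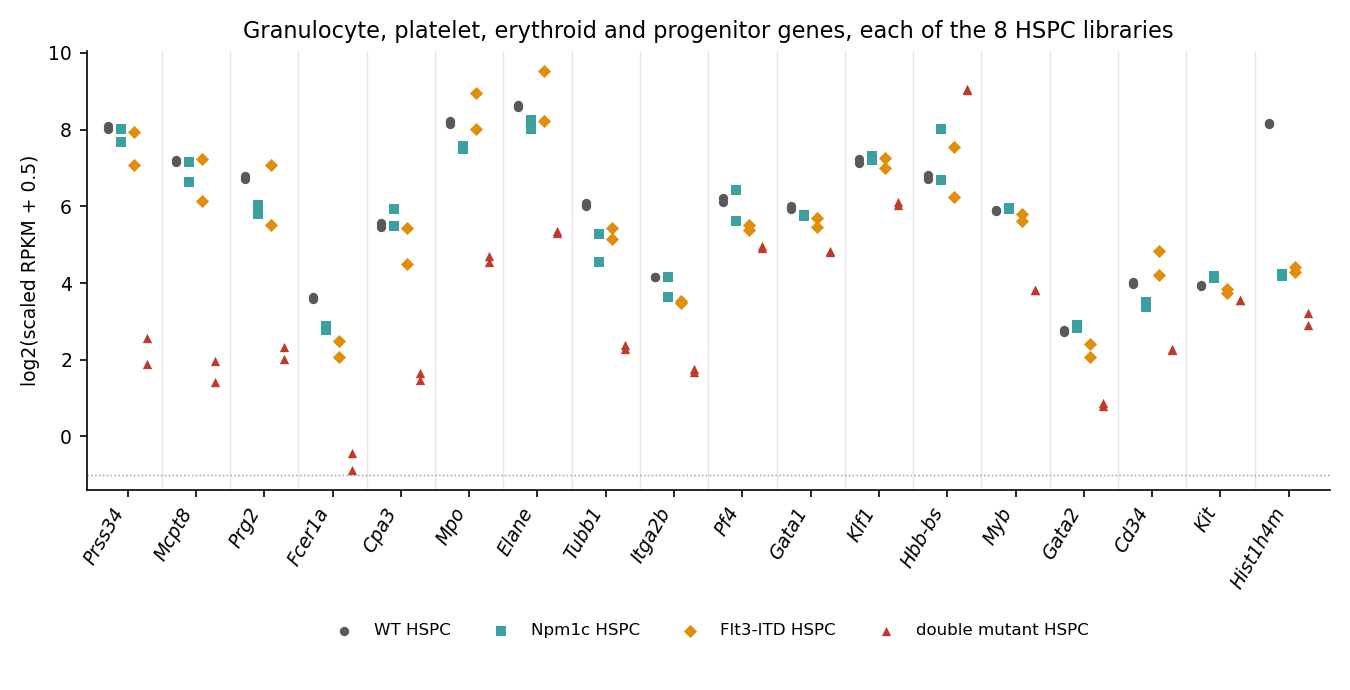
Each symbol is 1 library, with log2(scaled RPKM + 0.5) on the y axis for 18 granulocyte, platelet, erythroid, progenitor and histone genes on the x axis; the dotted line marks 0 scaled RPKM. The double mutant libraries (triangles) are the lowest for most genes, as for Prss34 at 3.24 and 5.39 scaled RPKM against 260 and 274 in WT, and the highest for Hbb-bs at 531 and 526.

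Markers of mature blood cells and of stroma were checked beside these results, since the fraction is meant to lack them. Cd3e was at 0.0252 and 0.0851 scaled RPKM in WT and 0.553 and 0.320 in the double mutant, and did not reach the minimum. Adgre1 (F4/80) rose from 0.564 and 0.532 to 7.29 and 7.16, Cd5 from 0.114 and 0.110 to 1.98 and 2.33, and Ptprc (CD45, of which B220 is a form) from 2.73 and 2.72 to 22.0 and 21.6. The 19 listed T and NK cell genes summed to 42.7 and 44.0 in WT and to 39.7 and 39.7, and of the 6 tested 5 were higher, all of which reached the minimum through the double mutant alone. They included Cd8a, at 0.0179 and 0.0151 in WT and 3.25 and 3.14, which type 1 dendritic cells also carry, and 1, Nkg7, was lower, a call that was lost without any 1 of the 4 libraries. The 18 listed B cell genes summed to 224 and 228 in WT and to 28.2 and 36.8, mostly through Jchain, the joining chain of secreted antibodies, which fell from 206 and 209 to 10.6 and 12. Tnfrsf17 and Mzb1, of plasma cells, had log2 changes of -2.11 and -2.03, while Cd79a, of B cells, stood at 2.94 and 2.88 in WT and 3.18 and 5.41 (adjusted p = 0.271). The 20 listed stromal and endothelial genes summed to 18.2 and 18.5 in WT and to 17.8 and 18, a sum that joins moves in both directions. Col1a1, collagen I, fell from 5.63 and 5.93 to 0.0745 and 0.156 and Cxcl12 from 1.10 and 1.02 to 0.00216 and 0.0219. Vcam1, an adhesion molecule of stroma and macrophages, rose from 0.618 and 0.598 to 9.66 and 9.58. Among members under the minimum, Cdh5 went from 0.145 and 0.179 to 0.640 and 0.616 and Kdr from 0.379 and 0.412 to 0.922 and 0.879. Sparc, also under it, went from 0.996 and 0.958 to 0.185 and 0.142 and Emcn from 0.122 and 0.136 to 0.0215 and 0.0165. The part of these other cells in any change was not tested.

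HoxA genes were higher, at low levels. All 5 tested of the 10 listed rose, with a median of 1.97, and 4 of the 5 reached the minimum through the double mutant alone. Hoxa10 (chr6:52231197-52240854) stood at 0.128 and 0.126 in WT and at 4.11 and 4.06 in the double mutant (log2 change 2.87, SE 0.093, adjusted p = 2.73e-07), and Hoxa9 (chr6:52223100-52231089), the leukaemic cofactor of MEIS1, at 0.962 and 1.02 and at 4.37 and 4.19. Hoxa5, Hoxa6 and Hoxa7 went from 0.307 and 0.241, 0.165 and 0.318, and 0.632 and 0.643 to 2.85 and 2.77, 2.52 and 2.28, and 3.42 and 3.76. In Npm1c HSPC Hoxa9 stood at 5.32 and 5.04 and Hoxa10 at 6.09 and 4.88, above the double mutant by 0.25 (adjusted p = 0.046) and 0.38 (adjusted p = 0.0073), while Hoxa5, Hoxa6 and Hoxa7 were higher in the double mutant by 0.82, 0.60 and 0.93. In Flt3-ITD HSPC Hoxa10 stood at 0.102 and 0.129, as low as in WT. Under the minimum, Hoxa3 went from 0.0523 and 0.0557 to 0.50 and 0.477 and Hoxa2 from 0.0711 and 0.108 to 0.643 and 0.622, and Hoxa4 stood at 0.339 and 0.338 in WT and 0.551 and 0.524. None of the 8 listed HoxB genes reached the minimum, the highest being Hoxb4 at 0.548 and 0.480 in WT and 0.969 and 0.860. Meis1, the usual partner of HOXA9 in leukaemia, stood at 0.936 and 0.943 in WT and at 0.993 and 0.993, also under the minimum. Skap2, an adaptor gene beside the cluster, went from 2.44 and 2.4 to 14.5 and 14.1 and was at 2.27 and 2.27 in Npm1c.

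Genes of signalling downstream of FLT3 were next. Of 18 STAT5 and cytokine targets tested, 11 were higher and 3 lower, or 10 and 5 on the deposited scale, and 6 reached the minimum through the double mutant alone. The feedback inhibitors rose: Socs2 from 0.0472 and 0.0341 to 2.37 and 2.31 (log2 change 2.39, SE 0.14, adjusted p = 5.9e-06), Cish from 0.129 and 0.108 to 2.10 and 1.99, Socs1 from 0.621 and 0.584 to 7.25 and 5.96 and Socs3 by 1.70. Socs2 was intermediate in Flt3-ITD HSPC, at 1.16 and 0.674, and at the WT level in Npm1c, at 0.0662 and 0.0464; Cish stood at 0.245 and 0.235 in Flt3-ITD. Pim1, a survival kinase induced by STAT5, went from 15.5 and 15.4 to 76.2 and 72.7, and Ccnd1, cyclin D1, from 3.64 and 3.67 to 32.8 and 32.5. Stat5a and Stat5b themselves had log2 changes of -0.51 and -0.46. The STAT site letters TTCNNNGAA occurred in the start-site windows of 2 of these feedback genes, printed because both rose, with the matches in capitals.
Cish, chr9:107296647-107296690, plus strand: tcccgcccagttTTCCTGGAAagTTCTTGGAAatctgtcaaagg
Socs3, chr11:117969500-117969532, minus strand: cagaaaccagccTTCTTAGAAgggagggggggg
The same letters were in 8.21% of all windows by gene and in 9.30% of those of genes at least 2-fold higher. Cytokine receptor genes were higher in 16 of 23 and lower in 4, with Csf2ra and Csf2rb, the 2 chains of the GM-CSF receptor, higher by 2.92 and 1.95 and Il10ra by 3.96.

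Of 10 MAPK feedback genes 4 were higher and 5 lower, near the shares of all genes (38.8% and 38.5%), with 1 reaching the minimum through the double mutant alone and 3 through WT alone. Dusp1 and Dusp5, phosphatases of MAP kinases, rose from 1.62 and 1.76 to 47.9 and 47.1 and from 1.23 and 1.34 to 20.2 and 19.8. The sprouty inhibitors and an ETS factor were lower: Spry4 went from 1.03 and 1.07 to 0.0128 and 0.0528, Spry2 from 1.90 and 1.83 to 0.421 and 0.490 and Etv5 from 1.87 and 1.77 to 0.434 and 0.450, and Dusp6 fell by 0.73, a call lost without library 2 of either group. In Flt3-ITD HSPC Spry4 stood at 0.265 and 0.422 and Etv5 at 0.637 and 0.963, between WT and the double mutant.

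Immediate early and heat shock genes were higher in 19 of 21, with a median of 3.66, and 7 of the 21 reached the minimum through the double mutant alone. Fos went from 1.82 and 1.83 to 79.0 and 77.4 (log2 change 5.08, SE 0.20, adjusted p = 7.69e-07), Jun from 6.11 and 6.16 to 78.2 and 77.5, Nr4a1 from 0.197 and 0.162 to 13.2 and 12.6 and Klf2 by 5.35. The inducible chaperone Hspa1a rose from 0.182 and 0.246 to 44.2 and 43.2 and Hspa1b by 5.19, whereas Hspa8, the constitutive form, stood at 253 and 262 in WT and 271 and 269, and Dnajb1, a cochaperone, at 37.7 and 40.3 and 37.5 and 38.2. Flt3-ITD HSPC had Hspa1a at 4.64 and 1.66.

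Interferon response genes were higher in 27 of 28, 21 of them by at least 2-fold, with a median of 1.88, and 7 reached the minimum through the double mutant alone. Ifi27l2a went from 5.61 and 5.75 to 240 and 247, Irf7, the amplifier of type I interferon, from 1.44 and 1.43 to 17.6 and 17.4 (log2 change 3.22, SE 0.088, adjusted p = 1.15e-07), Isg15, a ubiquitin-like modifier, from 3.77 and 3.08 to 23.4 and 21, and Stat2, a signal transducer of interferon receptors, by 2.17. Ifit1 moved less, from 1.81 and 1.99 to 3.79 and 3.42, and Ifi47, a GTPase, stood at 11.4 and 11.6 in WT and 11.7 and 11.1. The Npm1c libraries, which share Mx1-Cre, had Isg15 at 1.71 and 1.25 and Irf7 at 1.15 and 0.870, under WT. Summed over the list, WT stood at 136 and 137, Npm1c at 120 and 108, and Flt3-ITD, with no Cre in its label, at 198 and 173. The double mutant stood at 728 and 728. The part of either mutation or of the Cre was not tested. Of 21 genes of the list with a start-site window, 14 held an interferon-stimulated response element as GAAA, any 2 bases and GAAA on either strand, against 3.92% of all genes with a window and 6.98% of those at least 2-fold higher. Examples with capitals on the matches are printed for a gene with a large and 1 with a small change.
Isg15, chr4:156200863-156200908, minus strand: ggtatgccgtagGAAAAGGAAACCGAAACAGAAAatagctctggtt
Ifit1, chr19:34640773-34640825, plus strand: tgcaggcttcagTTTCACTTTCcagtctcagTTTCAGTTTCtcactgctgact
Overlapping matches stood in Isg15 and a pair in Ifit1.

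**Figure D4:**
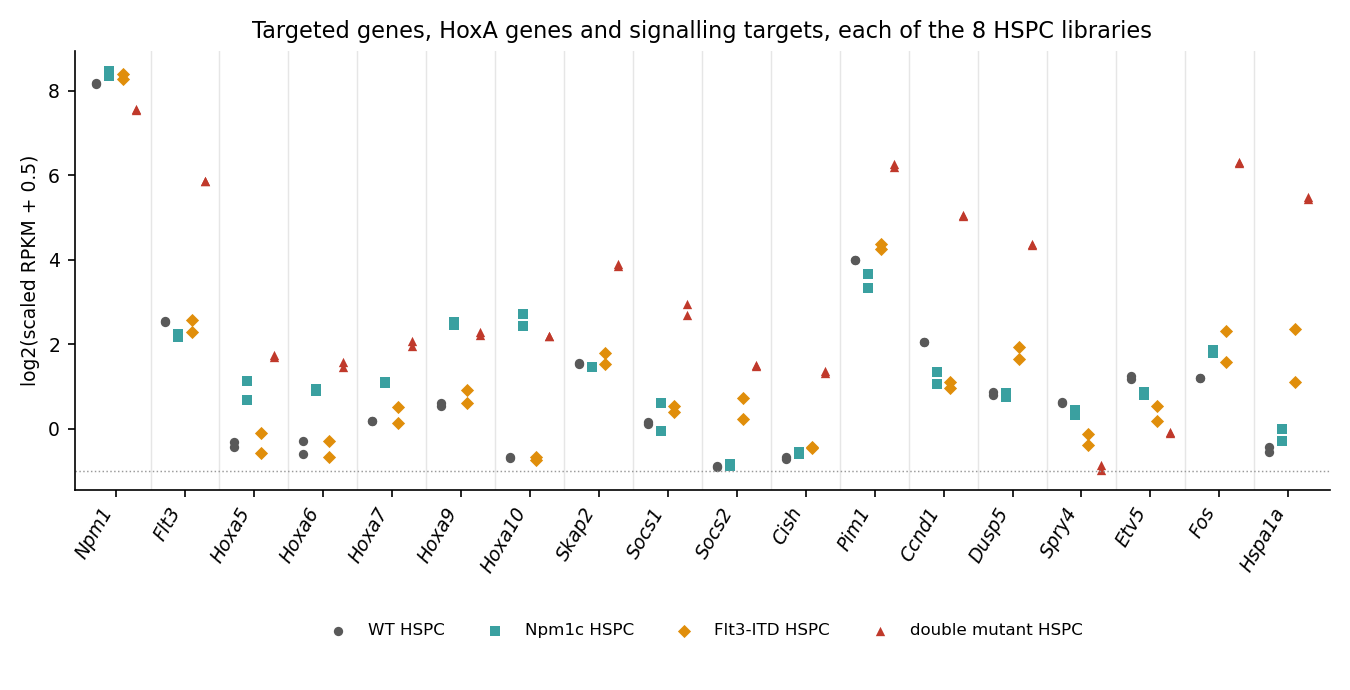
Each symbol is 1 library, with log2(scaled RPKM + 0.5) on the y axis for 18 targeted, HoxA and signalling genes on the x axis; the dotted line marks 0 scaled RPKM. The double mutant libraries (triangles) stand apart upward for Flt3, Ccnd1, Fos and Hspa1a and downward for Npm1, Spry4 and Etv5, and lie just under the Npm1c libraries for Hoxa9 and Hoxa10.

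Genes of DNA replication and mitosis were lower by small, even amounts. All 25 S phase genes were lower, with a median of -0.64 and a range from -1.08 to -0.38, and 24 of 25 G2 and mitosis genes were lower, with a median of -0.77. Mcm7, of the replicative helicase, went from 52.5 and 53.8 to 27.5 and 28.0 (log2 change -0.92, SE 0.037, adjusted p = 7.88e-07), Cdc6, a licensing factor, from 15.3 and 15.8 to 7.19 and 6.95, Top2a from 97.9 and 97.9 to 48.7 and 49.3 and Ccnb1, cyclin B1, from 20.8 and 21.7 to 11.3 and 11.5. Kif23, a kinesin of cytokinesis, was the exception, at 19.1 and 19.8 in WT and 25.0 and 25.9, and was not higher on the deposited scale. Mki67 stood at 127 and 116 in WT, 93.8 and 90.7 in the double mutant, 41.5 and 44.4 in Npm1c and 45.3 and 37.5 in Flt3-ITD, so it was lower than WT by 0.40 and higher than either single mutant, by 1.09 and 1.15. Clustered histone genes, which are transcribed in S phase, were lower in 22 of 24. Hist1h4m fell furthest, from 280 and 287 to 6.93 and 8.78, and was also low in Npm1c, at 18.5 and 17.8, and in Flt3-ITD, at 19 and 21; Hist1h1b, a linker histone, went from 719 and 720 to 348 and 354. Of 17 G1 regulators 7 were higher and 7 lower, or 4 and 9 on the deposited scale, near the shares of all genes (38.8% and 38.5%): the inhibitors Cdkn1a and Cdkn1b were higher by 2.45 and 1.16 and Cdkn2b, with 4 reads in both WT libraries together, stood at 4.48 and 4.25, while Cdk6 fell from 46.7 and 44.4 to 16.7 and 17.0 and Cdk4 by 0.74.

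Genes of ribosome assembly were lower as well. Of 26 nucleolar and MYC target genes, 21 were lower and 0 higher, and 5 did not pass, with a median of -0.50. Wdr12 went from 5.84 and 5.60 to 2.80 and 2.99, Polr1b, of RNA polymerase I, from 15.9 and 16.3 to 7.83 and 7.75 and Nop56 from 12.1 and 12.4 to 7.51 and 7.51. Myc fell from 6.53 and 6.65 to 5.09 and 5.08. Ncl, nucleolin, an NPM1 partner, stood at 52.7 and 37.2 in WT and 36.5 and 37.5 (adjusted p = 0.165), and Xpo1, the exportin that carries mutant NPM1 out of the nucleus, at 18.9 and 18.2 and 15.9 and 15.6. Cytosolic ribosomal protein genes kept near their WT level, with 4 of 25 higher, 7 lower and a median of -0.02; on the deposited scale 0 were higher and 23 lower. Rps12 stood at 3408 and 3538 in WT and 2885 and 2887. Of the 13 mitochondrial transcripts 7 were higher and 1 lower, with a median of 0.55, or 4 and 2 on the deposited scale: mt-Co1 went from 2803 and 3006 to 5494 and 5436 and was the most abundant transcript of the double mutant, and mt-Nd3 stood at 13.1 and 15.0 in WT and 8.76 and 11.6, a call lost without either WT library. Npm1c HSPC had mt-Co1 at 5280 and 4664.

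**Figure D5:**
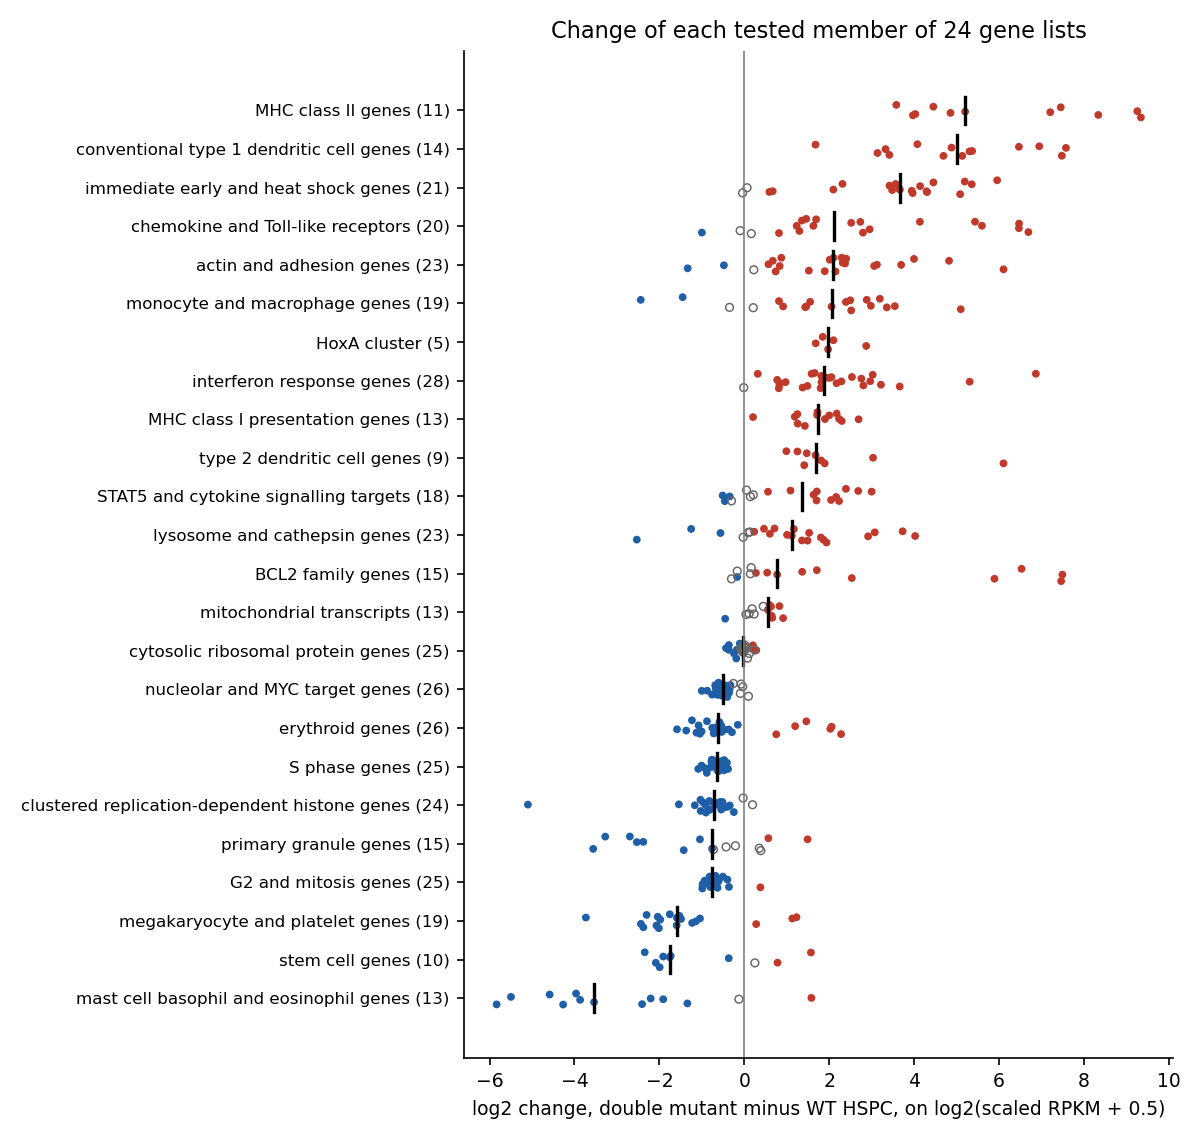
Each point is 1 tested member of 24 gene lists (number tested in brackets), with the log2 change of double mutant minus WT HSPC on the x axis and the lists on the y axis; red points were called higher, blue lower, open points did not pass and black bars are list medians. Medians run from 5.20 for MHC class II genes to -3.54 for mast cell, basophil and eosinophil genes, and the S phase points lie between -1.08 and -0.38.

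Survival, structural and chromatin genes were also tabulated. BCL2 family genes were higher in 10 of 15 and lower in 1, or 8 and 4 on the deposited scale, with 5 reaching the minimum through the double mutant alone. The BH3-only genes Pmaip1 (NOXA) and Bmf rose from 0.511 and 0.263 to 51.8 and 51.4 and from 0.211 and 0.160 to 3.60 and 3.32, Mcl1 rose from 41.4 and 41.4 to 138 and 135, and Bcl2 stood at 5.01 and 4.75 in WT and 3.86 and 3.87 (adjusted p = 0.0716). Of 15 p53 target genes 11 were higher, 6 of them by at least 2-fold, and 4 lower, against 38.8% and 38.5% of all genes. On the deposited scale 8 were higher and 4 lower, and 4 of the 15 reached the minimum through the double mutant alone. Bax, a pore former, was higher by 0.77 and the receptor gene Fas by 2.12. Actin and adhesion genes were higher in 20 of 23 and lower in 2, with a median of 2.10: Actb went from 479 and 496 to 2090 and 2089, Tmsb4x from 132 and 131 to 1742 and 1676 and Lsp1 from 2.02 and 2.09 to 71.7 and 71.8, whereas the integrin Itga6 fell by 1.33. Actb is often used as a reference gene, and here it was 4.29-fold higher, while Gapdh stood at 63.4 and 67.3 in WT and 69.0 and 70.6 (adjusted p = 0.54). Of 18 glycolysis enzymes 8 were higher and 6 lower, or 4 and 7 on the deposited scale, again near the shares of all genes, with Pfkp higher by 2.32 and the transporter gene Slc2a3 lower, at 7.29 and 7.32 in WT against 2.92 and 2.95. Among 18 chromatin genes 6 were higher, including Tet2, from 1.55 and 1.55 to 3.70 and 3.56, and Ezh1 (0.78), and 6 lower, including Dnmt1, from 35.6 and 36 to 20.5 and 20.9, against 4 higher and 12 lower on the deposited scale. The first 2 counts were near the shares of all genes (38.8% and 38.5%).

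The largest falls outside the lineages above were in genes with varied roles. Sh2d4a, an SH2 adaptor, went from 19.4 and 19.1 to 1.07 and 1.20 (log2 change -3.60, SE 0.11, adjusted p = 1.92e-07), Smo, the Hedgehog signal transducer, from 9.06 and 9.22 to 0.401 and 0.476, Gpc4, a glypican, from 5.97 and 4.98 to 0.0553 and 0.153, and Adgrl4 and Khdrbs3 had log2 changes of -3.26 and -3.16. All 5 kept levels in the single mutants above the double mutant, as Smo did at 6.88 and 7.11 in Npm1c and 9.63 and 10.1 in Flt3-ITD.

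Along the chromosomes there were 26 runs of at least 4 neighbouring tested genes that were all called higher by at least 2-fold, when 15.8% of genes met this call. How many runs would arise without clustering was not tested, and lower genes, at 4.33%, were too few for runs to be informative. The longest, chr17:34119541-34591754, held 14 genes from H2-DMa to Gpsm3, with the class II genes, Psmb9, Tap1, Psmb8 and Tap2. The next, chr7:103812524-104507849, held 10 genes, the adult globins Hbb-bt and Hbb-bs and 8 Trim genes, and the third, chr1:173350879-174054752, held 8, mostly of the interferon-induced HIN-200 family. Skap2 and the 5 tested HoxA genes formed a run of 6 (chr6:51857422-52240854). Many of these neighbours are paralogs that share sequence and function, so they are not independent. Expression level did not order the rises, with 17.5%, 14.5% and 15.5% of the lowest, middle and highest tertiles of genes by level higher by at least 2-fold.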

How the data were processed

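Bone marrow RNA was depleted of ribosomal RNA and sequenced from directional libraries, per the labels' protocols. The authors deposited 1 RPKM table per library with 16771 genes. The submitters' processing notes name STAR 2.4.0, HTSeq and DiffBind with mm10, without roles, and neither the strand setting of the counting nor the definition of gene length is stated in them. RPKM steps gave whole reads for 16655 of 16655 genes within 0.02 reads. The lengths they give were a median of 1.54 times the GENCODE M21 union exon length, so levels of different genes are not strictly comparable. This precision is counting depth only.

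The 4 libraries compared held 44450779 to 57824373 reads. RPKM were divided by median-of-ratios factors over the 8 HSPC libraries (9590 genes, WT set to a geometric mean of 1). Genes with at least 1 RPKM in 2 of the 4 libraries were tested with limma 3.58.1 in R 4.3.3, with a variance trend, on log2(scaled RPKM + 0.5), over 8 HSPC libraries, with Benjamini-Hochberg adjustment over 9626 genes and an adjusted p threshold of 0.05. On simulated data for this comparison with 9626 genes, 86.6%, 97.0% and 95.5% of genes changed by 1.5, 2 and 4-fold were recovered, and 8 of 9426 unchanged genes were called. Only 67, 67 and 66 genes were changed by these folds, each gene had the same spread in every group, and the scaling step was not simulated. In the real comparison 77.2% of genes were called, so these rates check the fit and are not error rates of the comparison. Scripts used Python 3.11.15, NumPy 2.4.6, pandas 2.3.3, SciPy 1.17.1 and matplotlib 3.10.9. Symbols of 9284 tested genes matched GENCODE M21 (GRCm38).

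The comparison and the gene lists were chosen with earlier results of these data known. Genes were named by rule: the targeted genes, the 20 largest rises and falls with at least 2 scaled RPKM in the higher group and no overlap (without predicted, small RNA and receptor segment names), up to 5 per list by adjusted p, HoxA genes, mitochondrial transcripts, cell markers, the 10 highest levels per group and up to 3 runs of neighbours per direction. Other list members and neighbouring genes named were chosen after their values were seen, as was Havcr2. Promoter windows are from RefSeq (GRCm38.p6), and 7377 tested genes had one. Alternatives covered scaling, pseudocount, filter, the libraries fitted, weights, a replicate block, a covariate for the libraries with Y-linked transcripts, and leaving out each library. A fit with voom on the recovered reads was added after seeing the data. Neutrophil libraries were not used in the tests.
A few list members are not reported here by name.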

Additional observations from a re-analysis of the deposited data

How the results depend on the processing

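Among genes named in the report that were called, the direction held under every setting in which the gene was tested, with 2 exceptions. These were Erap1, at -0.17 on the deposited RPKM and -0.028 when scaled to reads on listed genes, and F2r, at -0.090 on the deposited RPKM. Of 206 named genes recomputed, a minimum of 1 RPKM in all 4 libraries left 135 tested, and 5 RPKM in 2 of them left 172. Of genes that were not called, Hspa8 was lower, at -0.31, on the deposited RPKM, and Csf1r, Gapdh, Dnajb1 and Ifi47 changed sign under some setting without passing there. The cause was not tested. The numbers of genes called depended on scale and filter. On the deposited RPKM, 2312 genes were higher and 5683 lower, or 1154 and 1016 by at least 2-fold. Scaled to reads on listed genes, 2823 were higher and 5165 lower (719 by at least 2-fold), and after quantile normalization 2864 and 5153 (851 by at least 2-fold). The share of calls that were higher was 50.2%, 28.9%, 35.3% and 35.7% under the median-of-ratios, deposited, listed-gene and quantile scales. A minimum of 5 RPKM gave 1898 higher and 2295 lower genes (855 and 237 by at least 2-fold), with fewer genes tested. A minimum of 1 RPKM in all 4 libraries gave 851 and 228 by at least 2-fold. Under it 73 of the named genes were higher than Npm1c and 74 higher than Flt3-ITD. The main fit, which tested more of the named genes, gave 119 and 122. Leaving out 1 library at a time gave 3329 to 3940 higher and 3189 to 4004 lower genes. With a covariate for Y-linked transcripts, 3819 were higher and 3801 lower. Voom on the recovered reads, added after seeing the data, gave 3743 and 3688.

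Same-numbered libraries did not deviate together over all genes tested, with correlations of -0.094 to 0.030. Whether they were prepared together, with an effect on fewer genes, was not tested. With the replicate number as a block, 3694 genes were higher and 3639 lower. Only 2 libraries per group, with small scatter between them, limit the precision.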
